A study of Homo sapiens with 12 samples.

Results

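The mitogen-activated protein kinase (MAPK) pathway leaves its mark on a small set of transcripts, and 36 such genes were followed through the transcriptomes of MDA-MB-231 cells. They were taken by symbol from the 60664 genes of the count table, from a list drawn up with earlier results of these data known, and comprise 4 ligands of the epidermal growth factor receptor (EGFR), 6 dual-specificity MAPK phosphatases, 6 Sprouty and Spred proteins, 6 further immediate-early genes, 3 ETS factors of the PEA3 group, 8 subunits or partners of AP-1, and MYC, CCND1 and MAP2K3. All 36 were found, and all had a position in the reference annotation.

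In this pathway a ligand bound to a receptor such as EGFR activates RAS and the kinases RAF, MEK and ERK in turn. ERK then switches on immediate-early genes and AP-1, a dimer of FOS and JUN family proteins that binds DNA. It also induces its own brakes, the DUSP phosphatases, which remove phosphate from MAP kinases, and the Sprouty and Spred proteins, which act upstream on RAS and RAF.

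MDA-MB-231 is an established line from a triple-negative breast cancer. Wildtype (WT) cells were sequenced untreated in normoxia and after 24 hr in a chamber at 1% O2, and CCAR2-/- cells (CCAR2 KO), in which the gene for the protein DBC1 was disrupted, were sequenced untreated in normoxia, with 4 libraries per group. The knockout was made with CRISPR delivered by lentivirus, and whether the sequenced KO cells were a clone or a pool was not given in the sources used here. The methods speak of biological replicates but in another number than the labels, and nothing in the labels says that the libraries were separate cultures, so the p-values below measure the spread between these libraries only.

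Summed counts per library ran from 153904088 to 213743693 in WT normoxia, from 76384973 to 195621872 in WT hypoxia and from 68599412 to 152328450 in CCAR2 KO. CCAR2 stood at 144, 145, 146 and 151 CPM (counts scaled to a common library size) in WT normoxia, at 149, 143, 154 and 152 CPM in WT hypoxia and at 54.7, 56.7, 61.3 and 58.5 CPM in CCAR2 KO, so its transcript was lower in every KO library but still present. The hypoxia targets CA9, a carbonic anhydrase, and NDRG1, a stress-response gene, rose by 6.21 and 2.60 on the log2 scale in WT hypoxia (edgeR, adjusted p = 8.7e-08 and 5.0e-08). VIM, CD44, EGFR, AXL and CAV1, markers of this mesenchymal-like line, lay between 252.8 and 5396 CPM, and ESR1, PGR, CDH1, EPCAM and ERBB2 lay between 0 and 107 CPM. ERBB2 held the top of that range, with means of 91.0, 100 and 92.4 CPM in WT normoxia, WT hypoxia and CCAR2 KO. EPCAM had means of 14.4, 12.7 and 17.5 CPM, and the group means of ESR1, PGR and CDH1 were at most 0.307 CPM. PTPRC, PDGFRB and PECAM1, markers of leukocytes, fibroblasts and endothelium, were at most 5.76 CPM (PTPRC at most 0.235 CPM), and their sum was 2.83 to 4.19 CPM in WT normoxia, 3.93 to 5.24 CPM in WT hypoxia and 6.15 to 7.13 CPM in CCAR2 KO, where PECAM1 rose by 1.11 on the log2 scale (edgeR, adjusted p = 8.9e-05). The part of these markers in the results was not tested, and in bulk RNA fewer cells of a kind cannot be told apart from less RNA per cell. WT hypoxia replicate 2 stood farthest from the other libraries of its group, where the chi-square between 2 libraries, divided by its degrees of freedom, was 62.8 to 97.6 with it and 18.4 to 35.8 among the other 3, and counts without it are given below.

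A gene was called when its Benjamini-Hochberg adjusted p in edgeR's quasi-likelihood test was below 0.05 and its log2 fold change was 0.5 or more in either direction. In hypoxia DUSP1, a phosphatase, was called higher and EREG, an EGFR ligand, was called lower, and the remaining 33 tested genes were not called, while EGR3 was too low to be tested. Of all 21776 genes tested, 5.83% were called higher and 1.43% lower, and 7.26% in either direction. With the adjusted p alone, 6 of the 35 tested members were higher and 4 lower, beside 11.6% and 12% of all genes, or 23.5% in either direction. The 4 hypoxia libraries lay wholly above the 4 normoxia libraries for 9 members and wholly below for 7, beside 13.7% and 12.7% of all genes. The median log2 fold change was -0.02 over the members and 0.01 over all genes. Without WT hypoxia replicate 2, 1 member was called higher and 1 lower.

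Loss of CCAR2 was accompanied by higher levels of 9 of the 36 genes. These were the ligands EREG, AREG and TGFA, the feedback genes SPRY1, DUSP4 and DUSP6, the immediate-early genes EGR1 and IER3, and the ETS factor ETV1. DUSP1 and DUSP2 were called lower, and 25 members were not called. Of all 21410 genes tested in CCAR2 KO against WT normoxia, 6.73% were called higher and 2.94% lower, and 9.67% in either direction. With the adjusted p alone, 17 members were higher and 6 lower, beside 14.9% and 15.4% of all genes, or 30.4% in either direction, and the KO libraries lay wholly above the WT libraries for 19 members and wholly below for 6, beside 15.6% and 15.2% of all genes. The median log2 fold change was 0.21 over the members and 0.01 over all genes. Together the members made up 0.464% to 0.491% of a library's counts in WT normoxia, 0.477% to 0.526% in WT hypoxia and 0.568% to 0.571% in CCAR2 KO. Abundant genes weigh most in this share. The means of DUSP6, PHLDA1 and DUSP4 were 315, 548 and 229 CPM in WT normoxia and 548, 707 and 382 CPM in CCAR2 KO. In CCAR2 KO against WT normoxia 10 members had a negative log2 fold change.

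Because hypoxia and KO share the same WT normoxia libraries, the KO and hypoxia libraries were also compared directly. These groups differ in both genotype and oxygen, and the labels hold no KO library in hypoxia. Genotype and oxygen therefore cannot be told apart in this comparison. In that comparison EREG, ETV1, EGR2, SPRY1, DUSP4, DUSP6, AREG and TGFA were called higher in CCAR2 KO, and DUSP1, JUN and MAP2K3 were called lower, so 8 members were higher and 3 lower of 36. Among all 21158 genes tested, 7.08% were called higher and 7.88% lower, and 15% in either direction. With the adjusted p alone, 19 members were higher and 7 lower, beside 17.1% and 17.8% of all genes, or 34.9% in either direction. The 4 KO libraries lay wholly above the hypoxia libraries for 20 members and wholly below for 7, beside 18.2% and 17.8% of all genes. The median log2 fold change was 0.26 over the members and -0.02 over all genes. Without WT hypoxia replicate 2, 10 members were called higher, with IER3 and FOS added, and 3 lower.

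**Figure D1:**
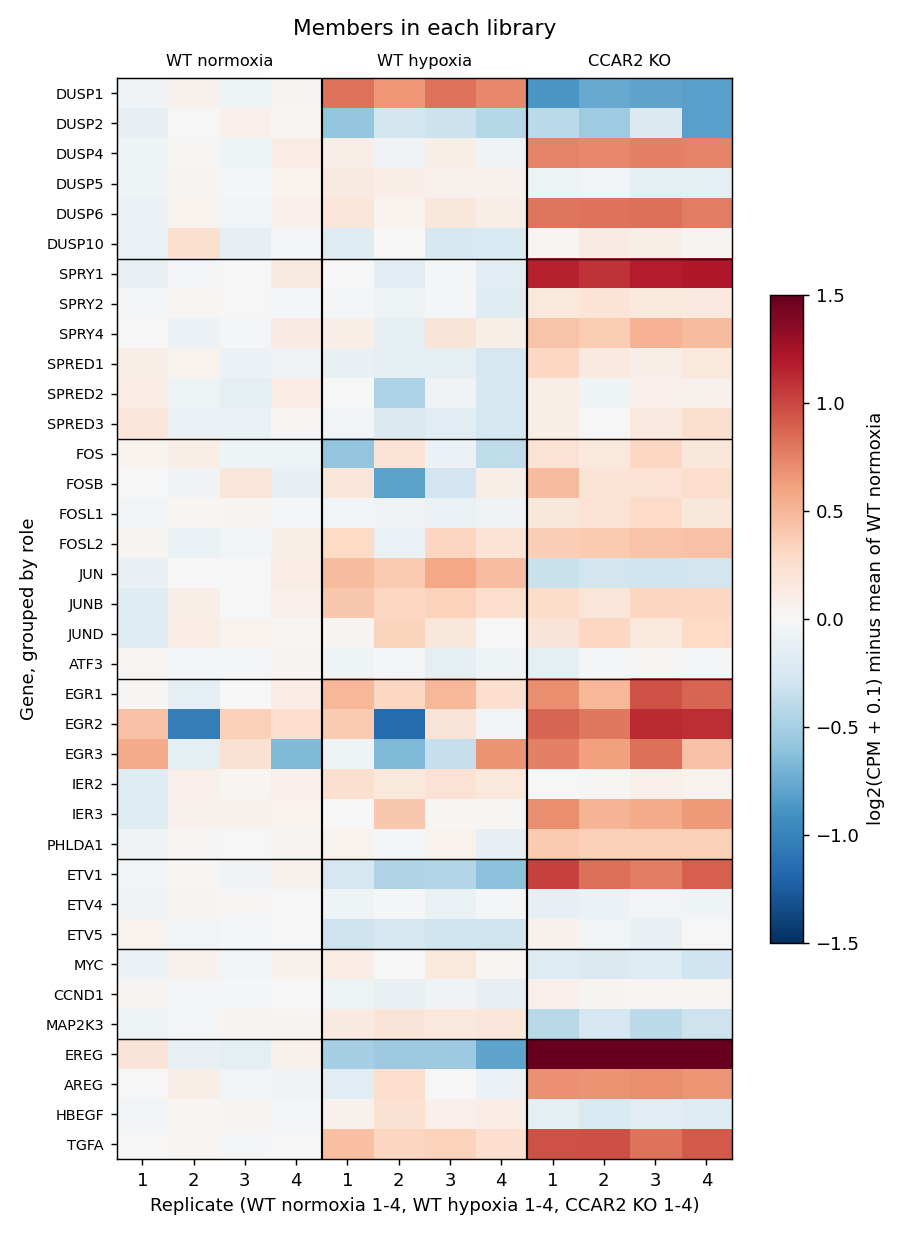
Each of the 36 genes (rows, grouped by role) in each of the 12 libraries (columns), as log2(CPM + 0.1) minus the gene's mean over the WT normoxia libraries, with colors capped at 1.5 in either direction. EREG, SPRY1, ETV1, TGFA, DUSP4 and DUSP6 are red in all 4 CCAR2 KO libraries, and DUSP1 is red in WT hypoxia and blue in CCAR2 KO.

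**Figure D2:**
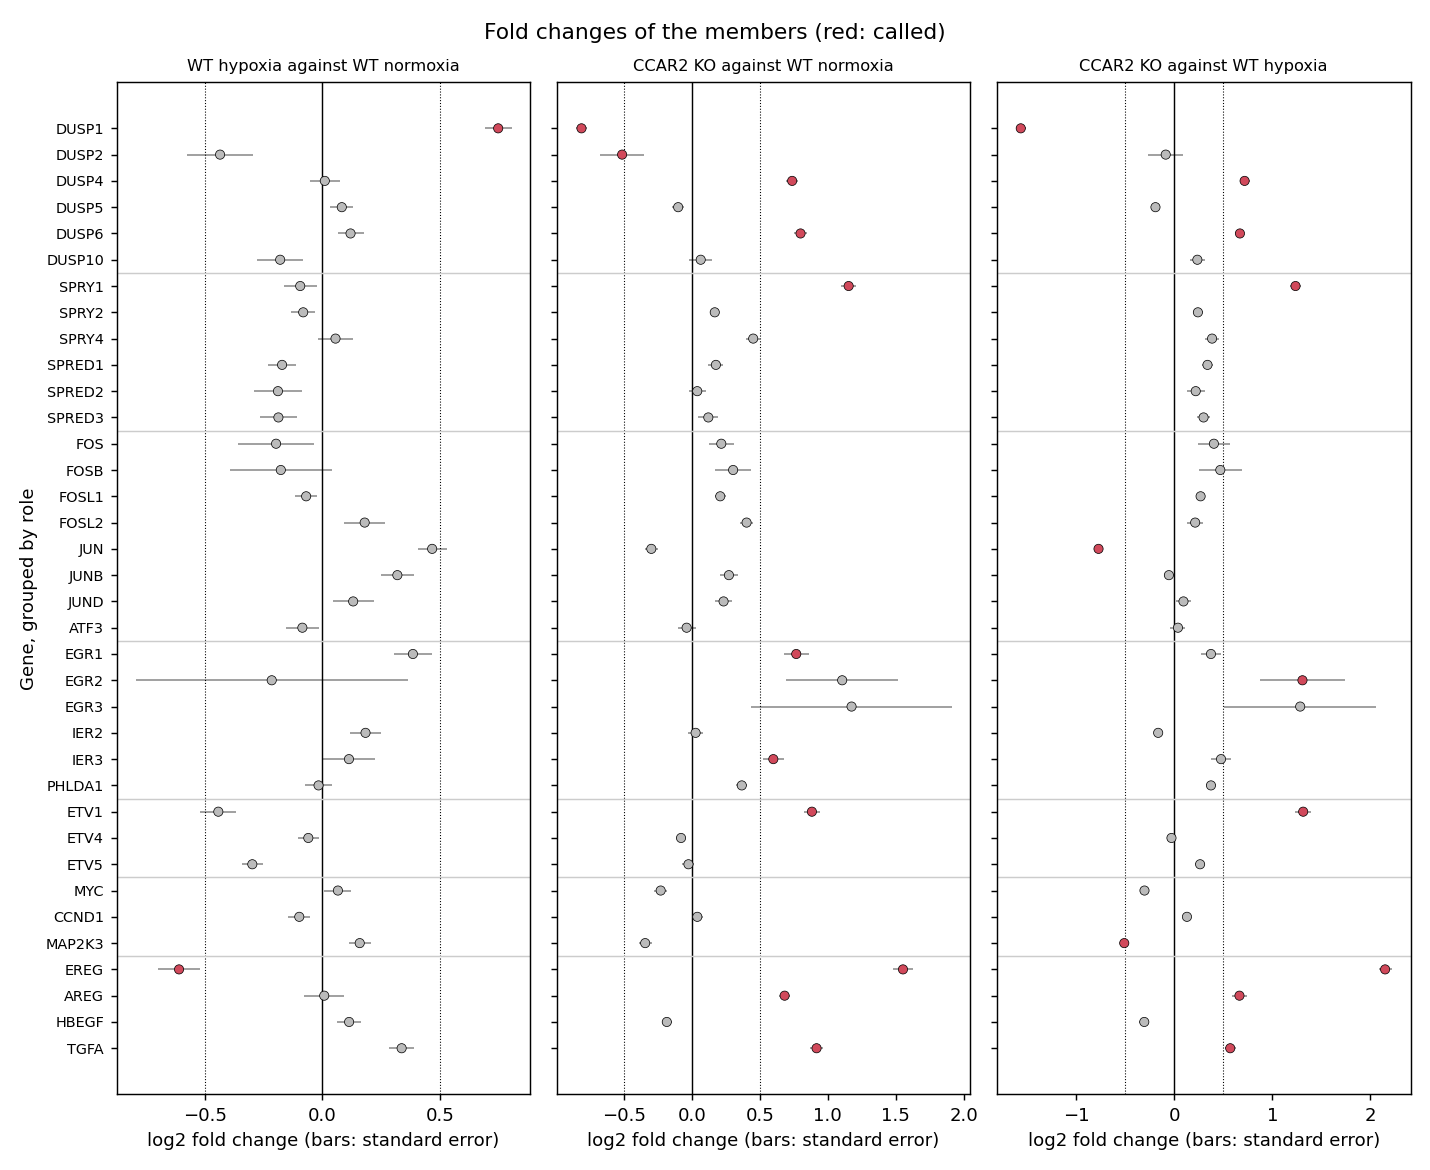
Log2 fold change (x axis, with its standard error) of each gene in the 3 comparisons, with called genes (adjusted p below 0.05 and a fold change past the limit of 0.5) in red and the fold limit as dotted lines. In WT hypoxia DUSP1 at 0.75 and EREG at -0.61 lie beyond the dotted lines, and in CCAR2 KO against WT normoxia EREG lies highest at 1.55.

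The EGFR ligands carried the largest KO difference of the set. These proteins are made as membrane precursors and shed to bind EGFR. EREG encodes epiregulin and lies next to AREG, which encodes amphiregulin, on chromosome 4 (GRCh38, EREG chr4:74365143-74388751, plus strand, AREG chr4:74445134-74455009, plus strand), with 56382 bases between the genes. Their promoters, from 250 bases before the annotated start to 50 after it, are shown because both genes were called higher in CCAR2 KO while only EREG was called in hypoxia. EREG was read at chr4:74364895-74365194, plus strand, and AREG at chr4:74444886-74445185, plus strand, from the RefSeq table for GRCh38.p14, with capitals marking a cAMP response element (CRE, TGACGTCA) in AREG and a hypoxia-inducible factor (HIF) core motif (ACGTG) in EREG. The HIF core motif, at position 38 from the annotated start of EREG, is in 21.4% of all promoters, and the CRE is in 1.85%. Whether either motif bears on the levels of these genes was not tested.
EREG: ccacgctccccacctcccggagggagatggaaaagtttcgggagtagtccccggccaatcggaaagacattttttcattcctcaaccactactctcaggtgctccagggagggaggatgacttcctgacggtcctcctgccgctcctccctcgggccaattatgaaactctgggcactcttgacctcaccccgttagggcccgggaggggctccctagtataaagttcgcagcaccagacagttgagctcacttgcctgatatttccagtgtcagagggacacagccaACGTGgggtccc
AREG: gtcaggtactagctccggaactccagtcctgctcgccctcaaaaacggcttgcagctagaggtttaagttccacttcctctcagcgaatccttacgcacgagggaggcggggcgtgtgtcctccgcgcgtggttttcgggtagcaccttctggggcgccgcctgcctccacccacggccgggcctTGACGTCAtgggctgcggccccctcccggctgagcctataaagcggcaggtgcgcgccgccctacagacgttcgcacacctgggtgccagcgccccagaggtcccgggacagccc

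EREG stood at 41.3, 33.3, 32.5 and 37.6 CPM in WT normoxia, at 25.4, 24.6, 24.6 and 20.8 CPM in WT hypoxia and at 109.9, 102, 103 and 109 CPM in CCAR2 KO. The 3 groups did not overlap, with hypoxia lowest and KO highest. The log2 fold change of EREG was -0.61 ± 0.09 (SE, edgeR, adjusted p = 9.3e-04) in WT hypoxia and 1.55 ± 0.07 (SE, edgeR, adjusted p = 2.4e-08) in CCAR2 KO, both against WT normoxia. Between the KO and hypoxia libraries it was 2.15 ± 0.07 (SE, edgeR, adjusted p = 5.3e-09). AREG was measured at 43.2, 46.3, 42.1 and 41.7 CPM in WT normoxia, 38.9, 51.98, 43.6 and 40.7 CPM in WT hypoxia and 69.9, 69.4, 70.5 and 68.4 CPM in CCAR2 KO. All KO libraries lay above all WT libraries, whereas the hypoxia libraries spread around those of normoxia. AREG rose by 0.68 ± 0.04 (SE, edgeR, adjusted p = 2.2e-07) on the log2 scale in CCAR2 KO, and its fold change in hypoxia was 0.01 ± 0.08 (SE, edgeR, adjusted p = 0.96).

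TGFA encodes transforming growth factor alpha and lies on chromosome 2 (chr2:70447280-70554193, minus strand). Its level was 36.2, 37.1, 35.9 and 36.3 CPM in WT normoxia, 49.6, 45.7, 46.3 and 43.3 CPM in WT hypoxia and 70.5, 71.3, 64.1 and 69.2 CPM in CCAR2 KO. The groups were fully separate, in the order normoxia, hypoxia and KO. The log2 fold change of TGFA was 0.92 ± 0.05 (SE, edgeR, adjusted p = 4.2e-08) in CCAR2 KO against WT normoxia and 0.57 ± 0.06 (SE, edgeR, adjusted p = 1.6e-05) against WT hypoxia, and in hypoxia it was 0.34 ± 0.05 (SE, edgeR, adjusted p = 0.0015), under the fold limit. HBEGF, the heparin-binding ligand, was not called in any comparison. It lay at 115 to 122 CPM in WT normoxia, 123 to 139 CPM in WT hypoxia and 101 to 107 CPM in CCAR2 KO, with log2 fold changes of -0.18 ± 0.04 (SE, edgeR, adjusted p = 0.0025) in CCAR2 KO and 0.11 ± 0.05 (SE, edgeR, adjusted p = 0.15) in hypoxia.

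Per kilobase of merged exons, HBEGF was the most abundant of these ligands in WT normoxia, at 39.2 CPM per kilobase, followed by AREG at 26.3, TGFA at 7.33 and EREG at 6.33 CPM per kilobase. Hypoxia kept this order of levels, with 42.6, 26.6, 9.31 and 4.18 CPM per kilobase. In CCAR2 KO, AREG came first at 42.2 CPM per kilobase and HBEGF second at 34.5, and EREG at 18.6 passed TGFA at 13.9 CPM per kilobase. The lengths are those of the annotation and not of the isoforms these cells use, so the order between genes rests on them.

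**Figure D3:**
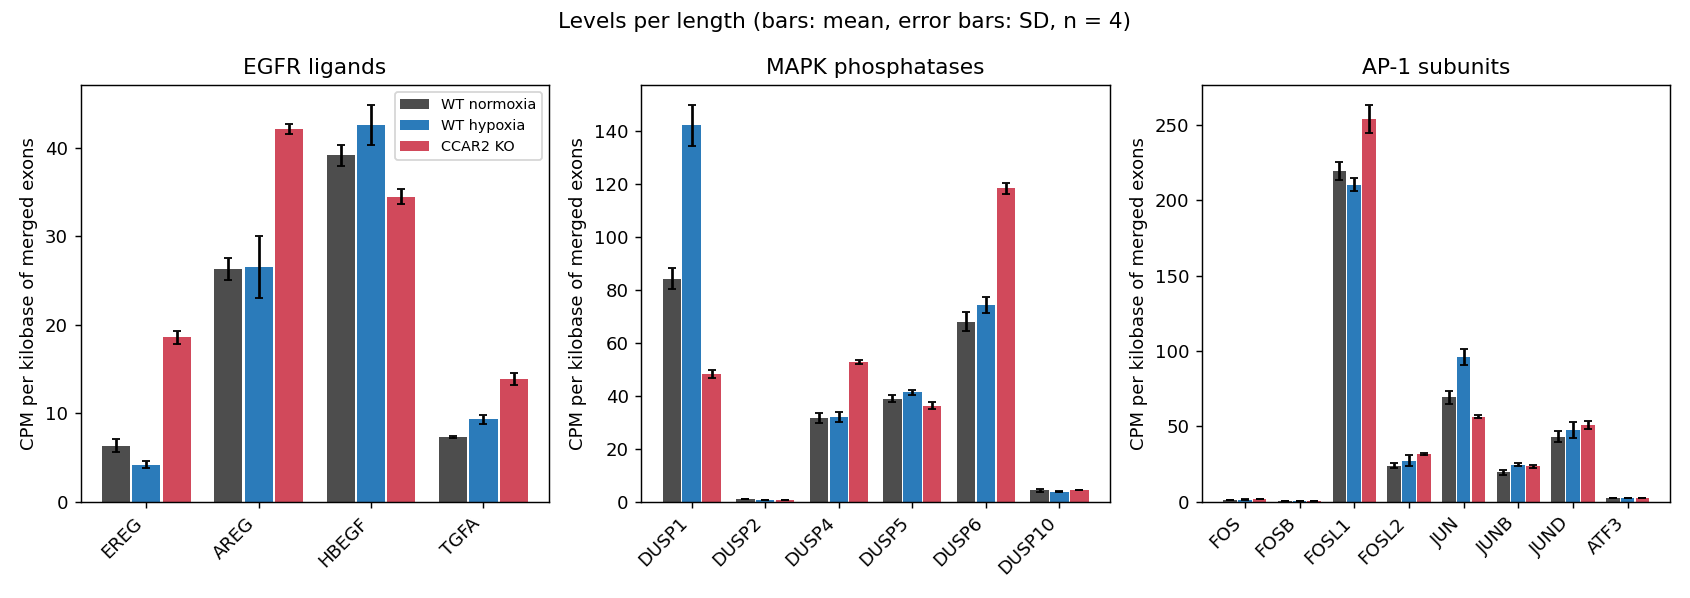
Mean CPM per kilobase of merged exons (y axis, error bars SD, n = 4 libraries) of the EGFR ligands, the MAPK phosphatases and the AP-1 subunits in WT normoxia, WT hypoxia and CCAR2 KO. AREG exceeds HBEGF in CCAR2 KO only, DUSP1 is the highest phosphatase in both WT groups and DUSP6 in CCAR2 KO, and FOSL1 is the highest AP-1 subunit in each group.

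Of the 6 MAPK phosphatases, DUSP4 and DUSP6 were called higher in CCAR2 KO, DUSP1 and DUSP2 were called lower, and DUSP5 and DUSP10 were not called. DUSP1, also known as MKP-1, is an immediate-early phosphatase of the nucleus that acts on p38, JNK and ERK, and lies on chromosome 5 (chr5:172768090-172771195, minus strand). Its promoter (chr5:172771146-172771445, minus strand, GRCh38.p14) is shown because DUSP1 was called in all 3 comparisons, with capitals marking a CRE at position -125 from the annotated start and the HIF core motif, which reads on both strands of the palindrome, at positions -108 and -107. The part of these motifs in the levels of DUSP1 was not tested.
DUSP1: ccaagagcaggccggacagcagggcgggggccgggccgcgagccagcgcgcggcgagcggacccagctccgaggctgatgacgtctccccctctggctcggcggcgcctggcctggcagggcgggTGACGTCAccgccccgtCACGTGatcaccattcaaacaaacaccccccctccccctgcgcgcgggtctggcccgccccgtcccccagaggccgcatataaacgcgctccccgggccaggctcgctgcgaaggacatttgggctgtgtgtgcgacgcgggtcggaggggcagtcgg

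DUSP1 stood at 164, 178, 163 and 175 CPM in WT normoxia, at 299, 267, 299.9 and 281 CPM in WT hypoxia and at 92.8, 100.2, 98.3 and 96.7 CPM in CCAR2 KO. The 3 groups were fully separate, with hypoxia above and KO below WT normoxia. DUSP1 rose by 0.75 ± 0.06 (SE, edgeR, adjusted p = 1.5e-05) on the log2 scale in hypoxia, the only member called higher there, and had a log2 fold change of -0.81 ± 0.04 (SE, edgeR, adjusted p = 7.2e-08) in CCAR2 KO against WT normoxia. The direct comparison of KO with hypoxia gave -1.57 ± 0.05 (SE, edgeR, adjusted p = 7.5e-09).

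DUSP6, or MKP-3, is a cytoplasmic phosphatase specific for ERK and one of the genes most often used to read out its activity (chromosome 12, chr12:89347232-89353271, minus strand). It was measured at 296, 325, 306 and 331 CPM in WT normoxia, 355, 327, 354 and 338 CPM in WT hypoxia and 549, 552, 556 and 534 CPM in CCAR2 KO. Every KO library was above every WT library, and the WT groups overlapped. DUSP6 rose by 0.80 ± 0.04 (SE, edgeR, adjusted p = 1.0e-07) on the log2 scale in CCAR2 KO, and its fold change in hypoxia was 0.12 ± 0.06 (SE, edgeR, adjusted p = 0.15). An antisense gene shares 1875 exonic bases with DUSP6, at a mean count of 1229.5 against 56295 for DUSP6, and whether counting used strand was not given in the sources used here. Exons of CCAR2, CCND1, ETV4, ETV5, EGR3, IER2, IER3, JUNB and PHLDA1 also overlap another gene in part, so a share of their counts may belong to it.

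DUSP4, or MKP-2, is a nuclear phosphatase induced by ERK. Its level was 219, 231, 218 and 247 CPM in WT normoxia, 246, 219.8, 243 and 219.6 CPM in WT hypoxia and 383, 376, 388 and 382 CPM in CCAR2 KO. The WT groups overlapped, and the KO libraries lay above both. DUSP4 rose by 0.74 ± 0.05 (SE, edgeR, adjusted p = 2.3e-07) on the log2 scale in CCAR2 KO against WT normoxia, and its fold change in hypoxia was 0.01 ± 0.06 (SE, edgeR, adjusted p = 0.93).

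DUSP2, a phosphatase first described in activated lymphocytes, was scarce, at 1.47, 1.61, 1.70 and 1.64 CPM in WT normoxia, 1.03, 1.31, 1.26 and 1.16 CPM in WT hypoxia and 1.19, 1.08, 1.36 and 0.868 CPM in CCAR2 KO. WT normoxia lay above both other groups, which overlapped each other. Its log2 fold change was -0.51 ± 0.16 (SE, edgeR, adjusted p = 0.029) in CCAR2 KO and -0.44 ± 0.14 (SE, edgeR, adjusted p = 0.044) in hypoxia. The KO call was lost without WT normoxia replicate 2, 3 or 4 and without CCAR2 KO replicate 2 or 4, where the fold change ran from -0.52 to -0.41. DUSP5, an ERK phosphatase of the nucleus, and DUSP10, which acts on p38 and JNK, were not called in any comparison. DUSP5 lay between 91.5 and 111 CPM over the 12 libraries and DUSP10 between 10.3 and 14.4 CPM.

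On the scale of CPM per kilobase, the order of phosphatase levels in WT normoxia was DUSP1 at 84.2, DUSP6 at 67.9, DUSP5 at 38.8, DUSP4 at 31.6, DUSP10 at 4.21 and DUSP2 at 0.830. In hypoxia DUSP1 reached 142 CPM per kilobase and DUSP6 74.2. In CCAR2 KO, DUSP6 led at 118 CPM per kilobase, ahead of DUSP4 at 52.7, DUSP1 at 48.03 and DUSP5 at 36.2. DUSP1 thus made up 37.0% of the summed level of these 6 phosphatases in WT normoxia, 48.3% in WT hypoxia and 18.5% in CCAR2 KO. Other DUSP genes are outside this sum.

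Of the Sprouty and Spred inhibitors, SPRY1 was the only member called. It lies on chromosome 4 (chr4:123396795-123403760, plus strand) and stood at 28.7, 30.7, 30.98 and 34.03 CPM in WT normoxia, 31.3, 27.5, 30.6 and 27.9 CPM in WT hypoxia and 69.1, 66.2, 70.1 and 71.4 CPM in CCAR2 KO. The KO libraries were far above the others, which overlapped. SPRY1 rose by 1.15 ± 0.06 (SE, edgeR, adjusted p = 3.9e-08) on the log2 scale in CCAR2 KO against WT normoxia and by 1.24 ± 0.06 (SE, edgeR, adjusted p = 4.8e-08) against WT hypoxia, and in hypoxia its fold change was -0.09 ± 0.07 (SE, edgeR, adjusted p = 0.38). SPRY4 came next, at 153, 145, 151 and 167 CPM in WT normoxia and 208, 201, 221 and 215 CPM in CCAR2 KO. These groups did not overlap, but its log2 fold change of 0.45 ± 0.05 (SE, edgeR, adjusted p = 2.8e-05) was under the fold limit.

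SPRY2, SPRED1, SPRED2 and SPRED3 had log2 fold changes in CCAR2 KO of 0.17, 0.18, 0.04 and 0.12. With the adjusted p alone, 4 of the 6 inhibitors were higher in CCAR2 KO against WT normoxia and 5 against WT hypoxia, beside 14.9% and 17.1% of all genes. In hypoxia 5 of the 6 values were negative, from -0.19 to -0.08, and in edgeR none passed an adjusted p of 0.05, while 2 had an unadjusted p below it, beside 35.3% of all genes. DESeq2 and limma-voom likewise called none of them in hypoxia. SPRY2 had the highest level per length in each group, at 41.9, 39.8 and 47.1 CPM per kilobase in WT normoxia, WT hypoxia and CCAR2 KO, and SPRY1 passed SPRED1 in CCAR2 KO, at 17.5 against 10.5 CPM per kilobase.

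**Figure D4:**
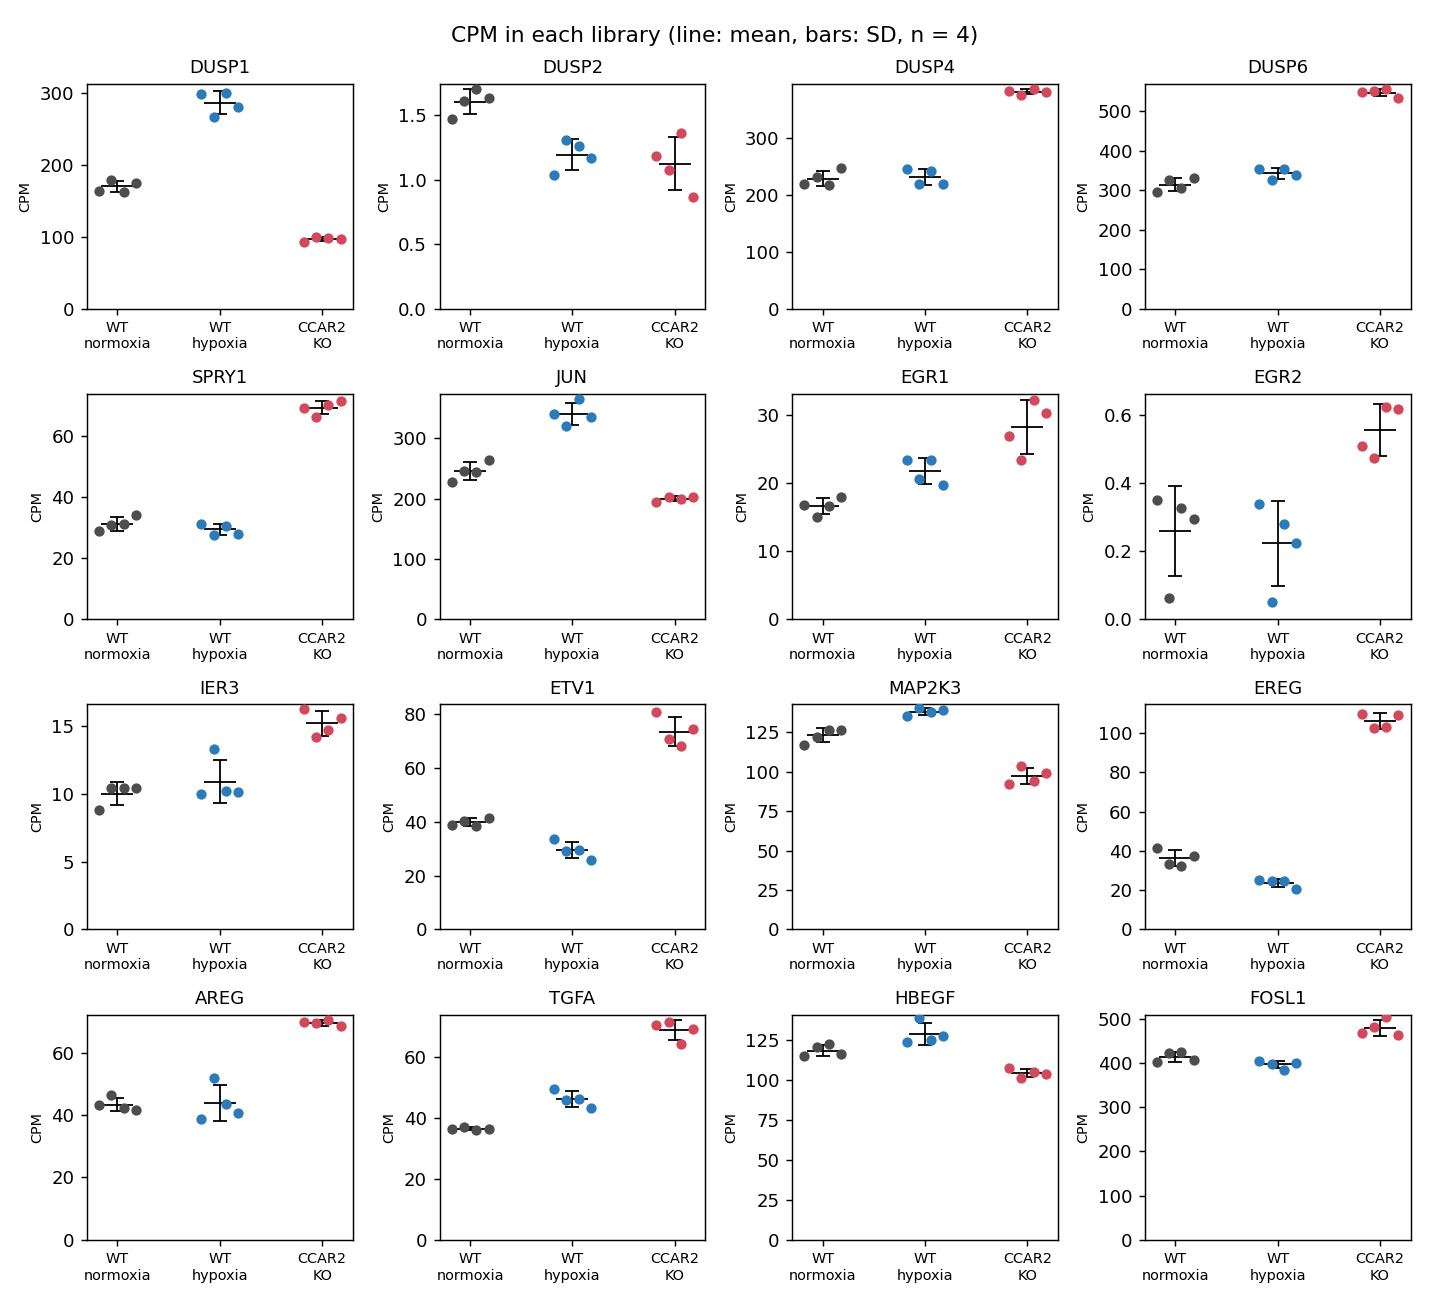
CPM (y axis, starting at 0) in each of the 4 libraries of WT normoxia, WT hypoxia and CCAR2 KO for the 14 called genes and for HBEGF and FOSL1, with the mean as a line and the SD as bars. The KO points of EREG, AREG, TGFA, SPRY1, ETV1, DUSP4 and DUSP6 sit above all WT points, those of DUSP1, JUN and MAP2K3 sit below all WT points, and EGR2 stays under 0.7 CPM.

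Among the immediate-early genes, EGR1 and IER3 were called higher in CCAR2 KO and none was called in hypoxia. EGR1 is a zinc-finger factor that is induced within minutes of ERK activation through serum response factor bound to CArG boxes (chromosome 5, chr5:138465490-138469315, plus strand). Its promoter (chr5:138465229-138465528, plus strand, GRCh38.p14) is shown for the pair of CArG boxes in capitals at positions -105 and -83, and the HIF core motif, on the minus strand, is also in capitals at position -137.
EGR1: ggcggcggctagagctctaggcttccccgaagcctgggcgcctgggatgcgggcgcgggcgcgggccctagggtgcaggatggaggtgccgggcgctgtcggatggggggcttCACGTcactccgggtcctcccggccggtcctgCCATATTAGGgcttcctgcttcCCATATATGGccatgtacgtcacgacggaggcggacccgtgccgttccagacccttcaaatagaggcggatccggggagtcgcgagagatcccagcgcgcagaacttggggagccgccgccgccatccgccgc

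EGR1 stood at 16.7, 15.03, 16.6 and 17.9 CPM in WT normoxia, 23.3, 20.6, 23.4 and 19.7 CPM in WT hypoxia and 26.96, 23.3, 32.2 and 30.3 CPM in CCAR2 KO. WT normoxia lay below both other groups, and hypoxia and KO overlapped at one library. The log2 fold change of EGR1 was 0.77 ± 0.09 (SE, edgeR, adjusted p = 6.3e-05) in CCAR2 KO and 0.38 ± 0.08 (SE, edgeR, adjusted p = 0.0058) in hypoxia, where it was under the fold limit. IER3, a survival gene induced by growth factors and by p53, was measured at 8.79, 10.4, 10.5 and 10.4 CPM in WT normoxia, 9.99, 13.3, 10.2 and 10.1 CPM in WT hypoxia and 16.2, 14.2, 14.7 and 15.6 CPM in CCAR2 KO. The KO libraries were above all others, and hypoxia replicate 2 stood above the rest of its group. IER3 rose by 0.60 ± 0.08 (SE, edgeR, adjusted p = 1.0e-04) on the log2 scale in CCAR2 KO, and against hypoxia its value was 0.48 ± 0.10 (SE, edgeR, adjusted p = 0.0033).

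EGR2, a relative of EGR1, was close to the lower end of detection, at 0.350, 0.0613, 0.326 and 0.294 CPM in WT normoxia, 0.336, 0.0490, 0.280 and 0.223 CPM in WT hypoxia and 0.506, 0.473, 0.623 and 0.617 CPM in CCAR2 KO. These levels correspond to counts from 4 to 96 per library. The KO libraries were above the WT libraries, and replicate 2 was low in both WT groups. EGR2 was called higher in CCAR2 KO against WT hypoxia, at 1.31 ± 0.43 (SE, edgeR, adjusted p = 0.035), and its value against WT normoxia was 1.11 ± 0.41 (SE, edgeR, adjusted p = 0.062). Against WT normoxia EGR2 was called by DESeq2 (adjusted p = 0.035), by limma-voom (adjusted p = 0.034) and with at least 10 counts in every library (edgeR, adjusted p = 0.038). The call against hypoxia was lost without the filter on low counts, in one fit of all 12 libraries, without WT hypoxia replicate 4 and without any one of the 4 KO replicates. With at least 10 counts in every library EGR2 could not be tested against hypoxia, since WT hypoxia replicate 2 had 4 counts. The lowest WT normoxia library had 11. EGR3 had counts between 0 and 30 per library and was not called.

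PHLDA1, a pleckstrin-homology protein induced by ERK, was the most abundant immediate-early gene per length, at 67.9 CPM per kilobase in WT normoxia and 87.6 in CCAR2 KO. Its log2 fold change of 0.37 ± 0.04 (SE, edgeR, adjusted p = 2.2e-05) in CCAR2 KO was under the fold limit, although every KO library was above every WT library. IER2 had log2 fold changes of 0.03 in CCAR2 KO and 0.18 in hypoxia and was not called. With EGR2 and EGR3 included, the median over the 6 immediate-early genes was 0.68 on the log2 scale in CCAR2 KO, and without these 2 genes of very low counts it was 0.48, beside 0.01 over all genes.

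The PEA3 group of ETS factors, which ERK activates and which take part in invasion programs, differed among themselves. ETV1 (chromosome 7, chr7:13891228-13991425, minus strand) stood at 38.8, 40.4, 38.5 and 41.6 CPM in WT normoxia, 33.5, 29.1, 29.5 and 25.9 CPM in WT hypoxia and 80.8, 70.7, 68.1 and 74.3 CPM in CCAR2 KO. The 3 groups did not overlap, with hypoxia lowest and KO highest, the same order of groups as for EREG. ETV1 rose by 0.88 ± 0.06 (SE, edgeR, adjusted p = 2.8e-07) on the log2 scale in CCAR2 KO against WT normoxia and by 1.31 ± 0.08 (SE, edgeR, adjusted p = 3.9e-07) against WT hypoxia, and its value in hypoxia was -0.44 ± 0.08 (SE, edgeR, adjusted p = 0.0021). Without WT hypoxia replicate 1 the hypoxia value was -0.51 and passed both limits.

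ETV5 had a log2 fold change of -0.30 ± 0.04 (SE, edgeR, adjusted p = 9.7e-04) in hypoxia and -0.02 ± 0.04 (SE, edgeR, adjusted p = 0.73) in CCAR2 KO. ETV4 stayed within -0.08 and -0.03 over the 3 comparisons. The 2 paralogs were nonetheless the more abundant ones, with ETV4 at 28.4, ETV5 at 20.7 and ETV1 at 4.14 CPM per kilobase in WT normoxia, and ETV1 at 7.64 CPM per kilobase in CCAR2 KO.

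No AP-1 subunit was called against WT normoxia by edgeR, DESeq2 or limma-voom, either in hypoxia or in CCAR2 KO. The edgeR test gave 2 of the 8 genes an unadjusted p below 0.05 in hypoxia and 7 in CCAR2 KO, beside 35.3% and 39.4% of all genes, and the fold limit was the criterion that JUN, FOSL1, FOSL2, JUNB and JUND missed in CCAR2 KO. JUN, the central partner of AP-1 dimers (chromosome 1, chr1:58780788-58784327, minus strand), stood at 227, 245, 245 and 263 CPM in WT normoxia, 340.2, 320.2, 365 and 336 CPM in WT hypoxia and 194, 202, 199 and 203 CPM in CCAR2 KO. Its 3 groups were separate and had the order of DUSP1, with hypoxia highest and KO lowest. The log2 fold change of JUN was 0.47 ± 0.06 (SE, edgeR, adjusted p = 4.8e-04) in hypoxia and -0.30 ± 0.05 (SE, edgeR, adjusted p = 5.1e-04) in CCAR2 KO, and between KO and hypoxia JUN was called lower at -0.77 ± 0.05 (SE, edgeR, adjusted p = 5.8e-07). Without WT normoxia replicate 4 the hypoxia value was 0.51 and passed both limits.

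FOSL1, which encodes FRA-1, was the most abundant AP-1 subunit, at 219.7 CPM per kilobase in WT normoxia, which was 57.9% of the summed level of the 8 genes. It lay at 404 to 425 CPM in WT normoxia, 385 to 404 CPM in WT hypoxia and 465 to 504 CPM in CCAR2 KO, with a log2 fold change of 0.21 ± 0.04 (SE, edgeR, adjusted p = 0.0019) in KO. FOSL2, or FRA-2, had 0.40 ± 0.05 (SE, edgeR, adjusted p = 4.5e-05) in CCAR2 KO, and JUNB had 0.27 ± 0.06 (SE, edgeR, adjusted p = 0.0066) in KO and 0.32 ± 0.07 (SE, edgeR, adjusted p = 0.0071) in hypoxia. JUNB shares 259 exonic bases with HOOK2 on the other strand.

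FOS and FOSB, the subunits that are induced only briefly by a stimulus, were low at 1.22 and 0.265 CPM per kilobase in WT normoxia. Their log2 fold changes were 0.22 ± 0.09 (SE, edgeR, adjusted p = 0.093) and 0.30 ± 0.13 (SE, edgeR, adjusted p = 0.11) in CCAR2 KO. JUND, at 0.23 ± 0.06 (SE, edgeR, adjusted p = 0.015), and the stress-induced factor ATF3, at -0.04 ± 0.07 (SE, edgeR, adjusted p = 0.73), complete the family. In KO the sign was positive for 6 of the 8 genes, with JUN and ATF3 negative.

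MYC, CCND1 (cyclin D1) and MAP2K3, the kinase that activates p38, are further genes with ties to MAPK output. MAP2K3 stood at 117, 122, 127 and 127 CPM in WT normoxia, 135, 140.2, 138 and 139 CPM in WT hypoxia and 92.4, 103, 94.1 and 98.96 CPM in CCAR2 KO. The groups were separate, again with hypoxia highest and KO lowest. MAP2K3 was called lower between KO and hypoxia, at -0.51 ± 0.05 (SE, edgeR, adjusted p = 1.0e-05), and was not called against WT normoxia, at -0.34 ± 0.05 (SE, edgeR, adjusted p = 1.6e-04) in KO and 0.16 ± 0.05 (SE, edgeR, adjusted p = 0.03) in hypoxia. The call between KO and hypoxia was lost without CCAR2 KO replicate 1, at -0.484, or replicate 3, at -0.496. Reads of MAP2K3 may be shared with pseudogene copies, so its counts are uncertain.

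MYC was at 241 to 269 CPM in WT normoxia and 209 to 224 CPM in CCAR2 KO, with a log2 fold change of -0.23 ± 0.05 (SE, edgeR, adjusted p = 0.0025). CCND1 was the most abundant of the 3, at 199 CPM per kilobase in WT normoxia, and its log2 fold change was 0.04 ± 0.04 (SE, edgeR, adjusted p = 0.49) in CCAR2 KO and -0.10 ± 0.05 (SE, edgeR, adjusted p = 0.16) in hypoxia.

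Other genes of the pathway were taken from lists of 89 genes in all, of which 88 were tested. In hypoxia 4 of them were called higher and 0 lower, beside 5.83% and 1.43% of all genes, and 44 had an unadjusted p below 0.05 in edgeR, beside 35.3% of all genes. ERRFI1, an inhibitor of EGFR, rose by 0.81 ± 0.05 (SE, edgeR, adjusted p = 2.2e-06) on the log2 scale in hypoxia, and BATF2, a bZIP factor, by 1.21 ± 0.23 (SE, edgeR, adjusted p = 0.0036). The other 2, named here after their values were seen, were DUSP8 at 0.83 and MAP2K6 at 1.12. Both were scarce, with means of 0.349 and 0.346 CPM in WT normoxia and 0.623 and 0.760 CPM in WT hypoxia. The median log2 fold change of the 88 genes was -0.01 in hypoxia.

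In CCAR2 KO against WT normoxia, 9 of the 88 genes were called higher and 3 lower, beside 6.73% and 2.94% of all genes, with a median of 0.03. BTC, which encodes the EGFR ligand betacellulin and lies on chromosome 4 beyond AREG, rose by 0.95 ± 0.19 (SE, edgeR, adjusted p = 0.0025) on the log2 scale. BTC was scarce, with a mean of 0.877 CPM in WT normoxia and 1.70 CPM in CCAR2 KO. EPGN, a further ligand gene on the other side of EREG, had means of only 0.117 and 0.195 CPM in these groups. RASA1, a GTPase-activating protein that turns RAS off, rose by 0.98 ± 0.05 (SE, edgeR, adjusted p = 5.4e-08), and BATF2 by 1.28 ± 0.22 (SE, edgeR, adjusted p = 8.6e-04). The genes called lower were the cytokine IL11 at -1.11 ± 0.06 (SE, edgeR, adjusted p = 1.2e-07), the nuclear receptor NR4A1 at -0.62 ± 0.11 (SE, edgeR, adjusted p = 7.7e-04) and the bZIP factor BATF3 at -0.53 ± 0.09 (SE, edgeR, adjusted p = 7.1e-04). RASA1 came from a list of 15 other negative regulators, of which 1 was called higher and 0 lower. With the adjusted p alone, 2 of the 15 were higher and 5 lower, beside 14.9% and 15.4% of all genes. The median log2 fold change of the 15 was -0.13. Among the 22 RAS, RAF, MEK and MAP kinase genes, 2 were called higher and 0 lower, with 10 at an unadjusted p below 0.05 in edgeR, beside 39.4% of all genes, and these 2, named after their values were seen, were MAPK13 at 0.63 and MAP2K6 at 0.80. MAP2K6 was scarce, with a mean of 0.346 CPM in WT normoxia and 0.604 CPM in CCAR2 KO. EGFR itself was not called, at -0.07 ± 0.07 (SE, edgeR, adjusted p = 0.47).

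Between KO and hypoxia, 7 of the 88 genes were called higher and 8 lower, beside 7.08% and 7.88% of all genes. BTC, RASA1 and EGF, the ligand that gives the receptor its name, had log2 fold changes of 1.30, 1.24 and 0.90, and IL11, NR4A1 and ERRFI1 had -0.98, -0.78 and -0.68. EGF had means of 3.95 CPM in WT normoxia, 3.99 CPM in WT hypoxia and 7.47 CPM in CCAR2 KO, so it was higher in KO than in either WT group.

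**Figure D5:**
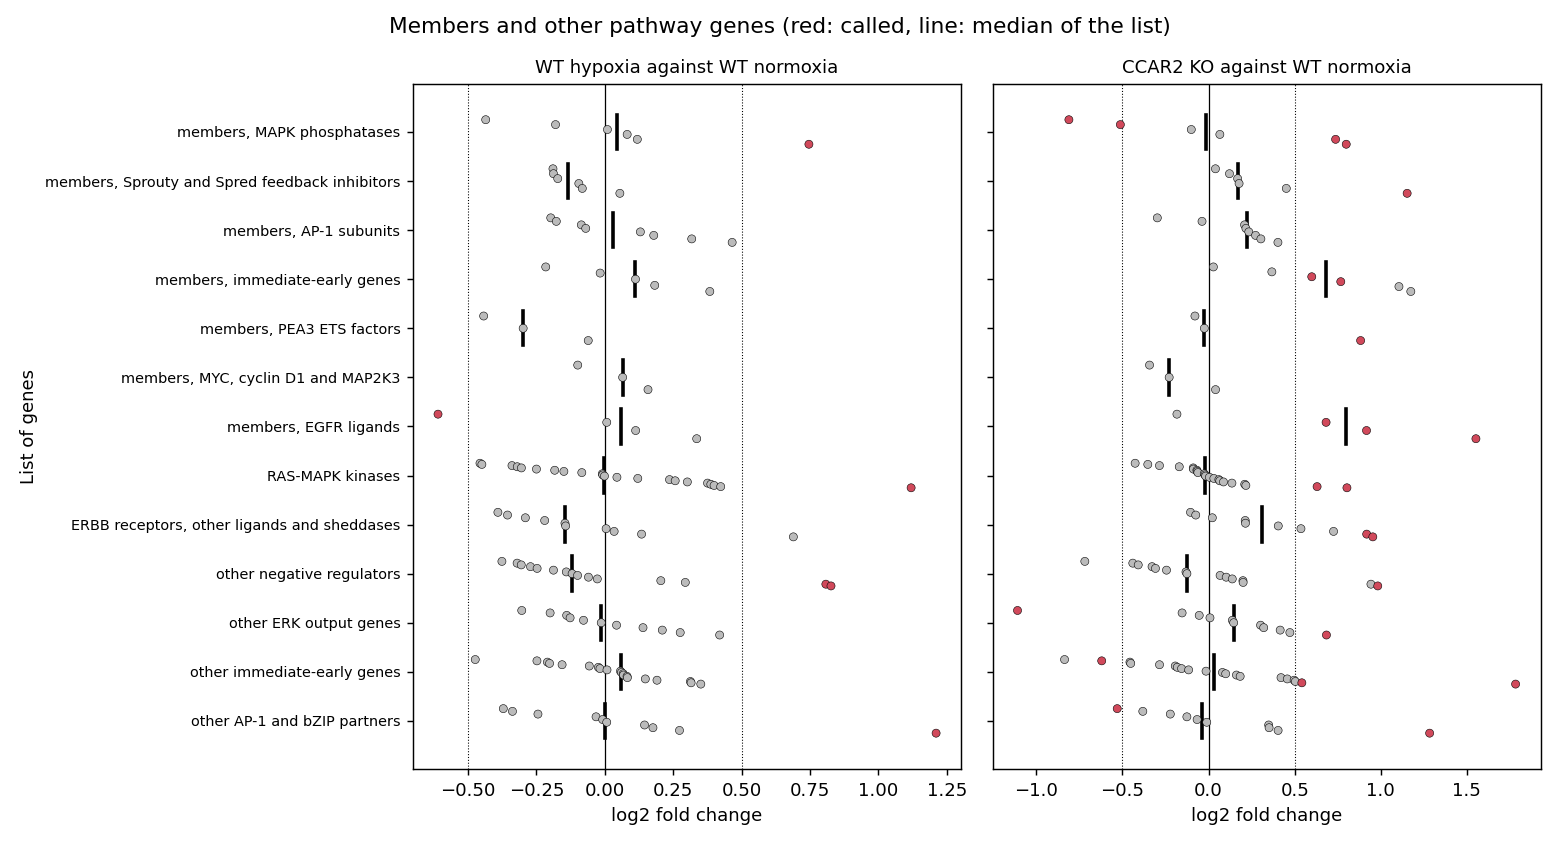
Log2 fold change (x axis) of every tested gene of the 7 member groups and the 6 other pathway lists (rows), in WT hypoxia and in CCAR2 KO against WT normoxia, with called genes in red, list medians as black lines and the fold limit as dotted lines. In CCAR2 KO the medians of the EGFR ligands at 0.80 and of the immediate-early genes at 0.68 lie beyond the dotted line, the latter inside it at 0.48 without EGR2 and EGR3, which have very low counts and were not called, and that of the RAS-MAPK kinases lies at -0.02.

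Of the 36 genes, 27 matched the RefSeq table, with 43 promoters of 300 bases, and the other 9 were CCND1, DUSP4, DUSP5, EGR3, ETV4, ETV5, FOSL1, IER3 and MYC. Motifs were searched on both strands as exact letters, and none of the matches of one motif shown in capitals overlaps another motif. The CRE (TGACGTCA) was in 3 member promoters, those of AREG, DUSP1 and JUND, and in 1.85% of all 35116 promoters. The AP-1 motif (TGANTCA) was in 4 member promoters, those of FOSL2, MAP2K3, SPRED2 and SPRED3, and in 7.71% of all. CArG boxes were in the promoters of EGR1 and EGR2 and in 1.29% of all.

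The HIF core motif (ACGTG) was in 10 of the 43 member promoters, or 23.3%, beside 21.4% of all. These belong to 8 genes, DUSP1, DUSP2, EGR1, EGR2, EREG, ETV1, FOSL2 and IER2. The ETV1 promoters that start at chr7:13990653 and chr7:13990657 overlap and hold the same site. The ETS motif (CCGGAAGT), in 4.14% of all promoters, and the EGR motif (GCGTGGGCG), in 0.795% of all, were in none of the 43. A match shows only that these letters lie in the window. The 3 genes with a CRE had log2 fold changes in CCAR2 KO of 0.68 for AREG, -0.81 for DUSP1 and 0.23 for JUND.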

How the data were processed

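RNA-seq was measured in 12 libraries of MDA-MB-231 cells, grouped by the labels into WT normoxia, WT hypoxia and CCAR2 KO. According to the methods, poly-A libraries were sequenced, cleaned, aligned with Hisat2 and quantified with StringTie, whereas the labels list HISAT2, SAMtools and featureCounts. The genome build and annotation were not given in the sources used here. What the authors deposited is a table of estimated counts per gene, made from the aligned reads, in whole numbers and not scaled to depth.

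The 36 genes and the other pathway lists were chosen with earlier results of these data known. Each comparison was fitted on its 8 libraries over all genes with edgeR 4.0.16 in R 4.3.3 (TMM, filterByExpr, glmQLFit, glmQLFTest). P-values were adjusted by the Benjamini-Hochberg method over all genes tested, and the SE is the absolute log2 fold change divided by the square root of F. CPM were scaled by TMM over all 12 libraries and divided by merged exon length (GENCODE v29, GRCh38) where genes were compared. Called members are given in every library. From the other lists, up to 3 called genes per direction are named, those whose mean count reached 100 and whose groups do not overlap. Of 60664 identifiers, 58396 were in that annotation.

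Alternatives were DESeq2 1.42.0, limma-voom (limma 3.58.1), other normalizations and filters, the adjusted p alone, one fit of all libraries, a replicate block and each library left out. Promoters came from RefSeq (GRCh38.p14).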

Additional observations from a re-analysis of the deposited data

Results flagged for a closer look

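Within the 4 libraries of a group, a member was flagged when its highest or lowest library lay apart from the nearest of the others by a share of the group's range above Dixon's limit for 4 libraries. This held in 5 of 108 groups, and chance flags about 1 in 20, or 5.4 groups. IER3 was flagged in WT normoxia, where replicate 1 was lowest at 8.79 CPM with the nearest library at 10.4 CPM (gap over range 0.967), and in WT hypoxia, where replicate 2 was highest at 13.3 CPM with the nearest at 10.2 CPM (0.924). DUSP10 was flagged in WT hypoxia, where replicate 2 was highest at 12.2 CPM with the nearest at 10.6 CPM (0.835). EREG was flagged in WT hypoxia, where replicate 4 was lowest at 20.8 CPM with the nearest at 24.6 CPM (0.830), and without that library EREG remained called lower in hypoxia. PHLDA1 was flagged in CCAR2 KO, where replicate 1 was highest at 721 CPM with the nearest at 704 CPM (0.870).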

How the results depend on the processing

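The 24 called fold changes of members gave 383 values under the alternatives, of which 368 kept direction and call, 15 kept direction but lost the call and 0 reversed. The adjusted p alone is the main fit without the fold limit, so it could lose none of these calls, and its 24 values are among the 368. The lost calls were those of DUSP2 in CCAR2 KO, EGR2 and MAP2K3 between KO and hypoxia, and the other 21 were called in every alternative. With the adjusted p alone, 5127 genes, 6 members higher and 4 lower passed in hypoxia, 6506 genes, 17 and 6 in CCAR2 KO, and 7390 genes, 19 and 7 between KO and hypoxia. Without the filter on low counts, 1 member was called lower in CCAR2 KO. With each library left out in turn, hypoxia gave 1308 to 1843 genes, 1 to 2 members higher and 1 to 2 lower, CCAR2 KO gave 1862 to 2097 genes, 9 to 10 higher and 1 to 2 lower, and KO against hypoxia gave 2891 to 3200 genes, 7 to 10 higher and 2 to 3 lower.

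Replicate numbers did not pair the libraries, with correlations of same-numbered libraries between -0.03 and 0.07 after group means were removed. A fit with the replicate block called 1507 genes in hypoxia with 1 member higher and 1 lower, 1996 genes in CCAR2 KO with 10 and 2, the added member being EGR2, and 3091 genes between KO and hypoxia with 8 and 3. Counts were low for EGR2, from 4 to 96 per library, and for EGR3, from 0 to 30. No scaling moved the median of all genes by more than 0.1 on the log2 scale.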
